A study of Danio rerio with 6 samples.

Results

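The genes examined here are the zebrafish Wnt ligands, their receptors, secreted antagonists, target genes and nuclear factors, in *Danio rerio* embryos labelled as depleted of *rapgef1b* and in control embryos. They were chosen by name: the rows called *wnt*, *fzd*, *lrp5* or *lrp6*, *ror1* or *ror2*, *dkk*, *sfrp*, *axin1* or *axin2*, *lef1*, *tcf7* or *sp5*, with any copy suffix such as -2 ignored. This gave 84 rows under 63 gene names, of 47445 rows in the table. They comprise 35 ligand rows, 24 receptor rows, 14 antagonist rows, 5 target rows and 6 rows of nuclear factors and of the scaffold gene *axin1*.

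RNA was sequenced from 3 samples labelled as *rapgef1b* knockdown and from 3 labelled wild type, all at 1 day post-fertilisation. *rapgef1b* encodes an exchange factor for Rap GTPases, and the study's title names neural crest specification and presomitic mesoderm patterning. The labels give no strain, no depletion reagent and no reagent for the control embryos. They do not say whether replicates came from separate clutches or pools, so the p-values measure only the spread between these samples.

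Wnt proteins are secreted, lipid-modified ligands that bind Frizzled receptors together with the coreceptors Lrp5 and Lrp6, or with receptor tyrosine kinases of the Ror family. In the canonical branch, binding keeps β-catenin from being destroyed on a scaffold that contains Axin, and β-catenin then acts with Tcf and Lef proteins to switch on targets such as *axin2*, *lef1* and the *sp5* genes. In the zebrafish embryo this pathway patterns the brain along its length and maintains the progenitors of the tailbud, while β-catenin independent branches orient cells during body extension.

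Libraries held 2118413 to 2232625 counts in the knockdown-labelled group and 2042600 to 3809123 counts in controls. Levels are given as CPM, read counts scaled to the same library total with TMM factors, and genes are not compared with each other in level because CPM is not corrected for length. Lower levels of *rapgef1b* itself were not found in the knockdown-labelled group. It had 142, 105 and 140 CPM in these, against 109, 111 and 109 CPM in controls, with a log2 fold change of 0.24 ± 0.14 (SE) at an adjusted p of 0.386. Adjusted p stands throughout for the edgeR quasi-likelihood p-value after Benjamini-Hochberg correction over all tested genes, unless another tool is named. Directions below therefore compare libraries by label, knockdown-labelled relative to control, and not by a measured loss of the transcript. Each of the 13 marker lists, from epidermis to neurons, muscle, blood and tailbud, had at least 3 tested genes. All 4 tested lens genes were called lower, and of the 10 genes of the neural crest and pigment list 1 was called higher and 5 lower. Calls were not limited to these lists. Called lower were 2 of 4 tested blood genes, 2 of 6 yolk and plasma genes and 1 of 6 notochord genes, with 0 higher. The somite and muscle list had 2 higher and 1 lower of 9, and the otic and lateral line list 2 higher and 0 lower of 6. The heart and endothelium lists had 0 calls, and the tailbud, neural and epidermal lists are given below. Over all tested genes 2.01% were called higher and 2.27% lower. The part of these marker shifts in the Wnt values was not tested. These are levels in bulk RNA, in which fewer cells of a type and less RNA per cell cannot be told apart.

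Of the 84 rows, 44 passed the count filter and were tested, 24 had counts but too few for the test, and 16 had no count in any library. Among the 44, 3 were called at an adjusted p-value under 0.05 (6.82%), against 4.29% of all 15607 tested genes. The target gene *sp5l* and the receptor gene *fzd6* rose, and the nuclear factor gene *tcf7l2* fell. The background share was 2.01% for calls higher and 2.27% for calls lower. No tested ligand or antagonist was called, and neither were the direct targets *axin2* and *lef1*. The median log2 fold change of the 44 tested rows was 0.089, against 0.011 over all tested genes, and neither includes the rows with too few counts. Of the 44, 31 lay above 0 (70.5%, against 51.2% of all tested genes) and 13 below. At an unadjusted p-value under 0.05 there were 10 rows (22.7%), where 18.1% of all tested genes met that level. The groups did not overlap in 13 rows (29.5%, against 23.2% of all tested genes), 10 with the knockdown-labelled libraries higher (22.7%, against 11.3% of all tested genes) and 3 with them lower (6.82%, against 11.9%).

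**Figure D1:**
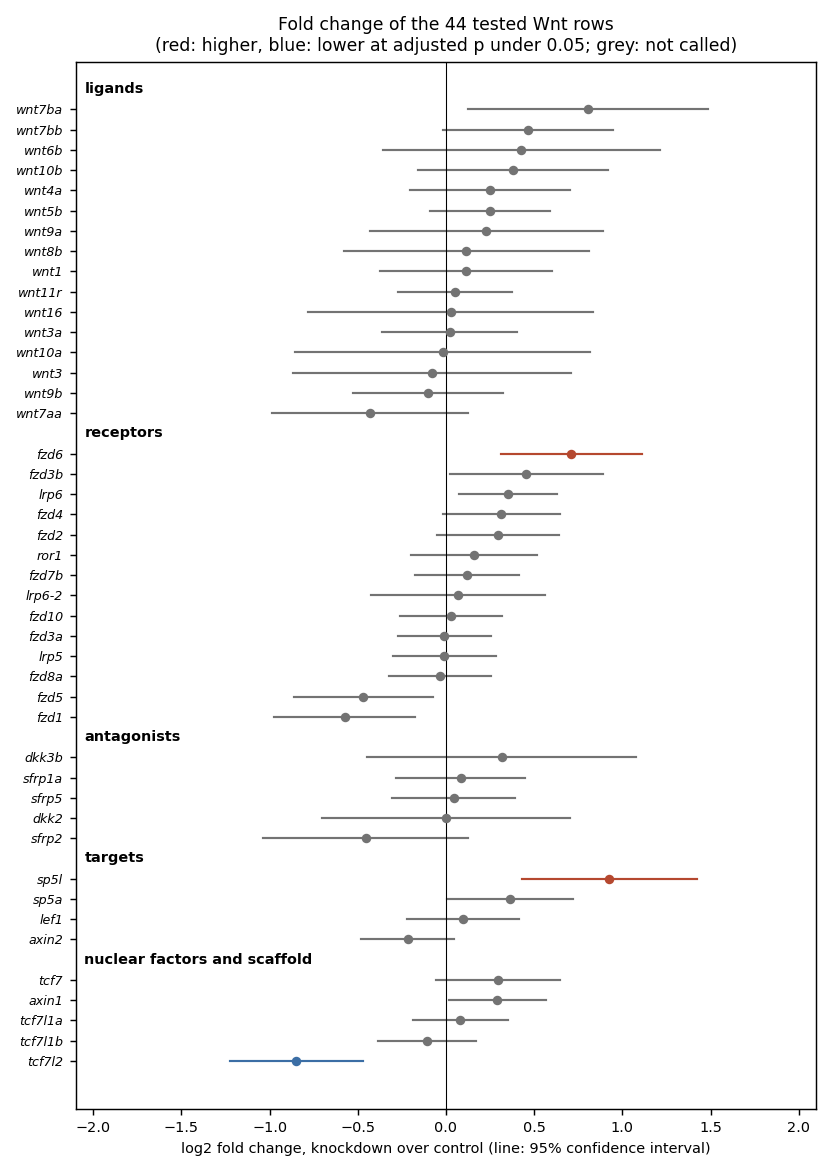
Log2 fold change of each of the 44 tested rows, knockdown-labelled over control, by role, with its 95% confidence interval (3 libraries per group). The intervals of *sp5l*, *fzd6* and *tcf7l2*, in colour, lie clear of 0 and passed the adjusted test, while most ligand and antagonist intervals span 0. Those of *wnt7ba*, *lrp6*, *fzd1*, *fzd5*, *fzd3b*, *sp5a* and *axin1* also lie clear of 0, but these rows were not called.

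**Figure D2:**
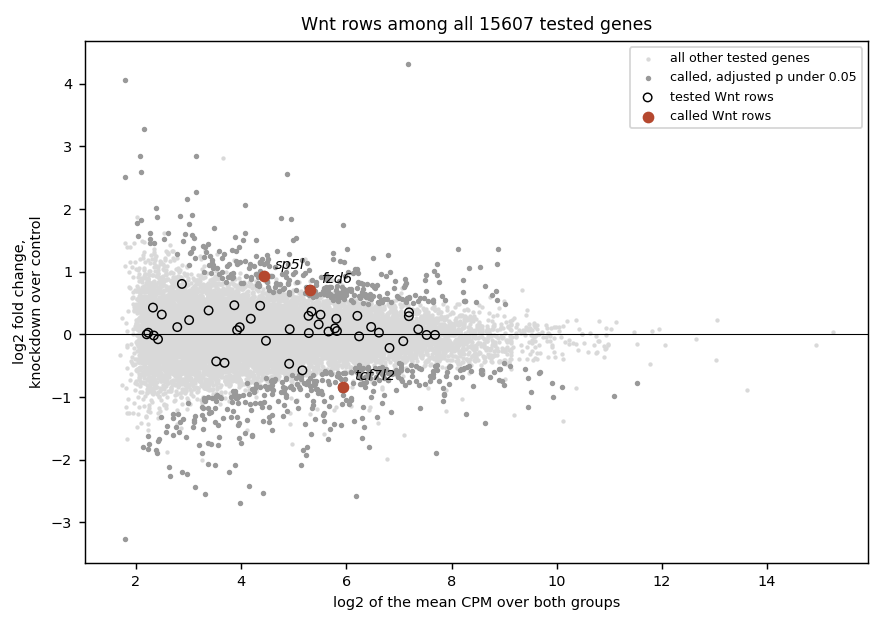
Log2 fold change, knockdown-labelled over control, against the log2 of the mean CPM for all 15607 tested genes, with the 44 tested rows circled and the 3 called ones filled. Most circled rows lie within the band of genes that were not called.

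Of the 4 tested target genes, *sp5l* rose and the other 3 were not called. *sp5l* encodes an Sp-family zinc finger factor that in zebrafish acts downstream of Wnt signals in mesoderm and neuroectoderm. It had 27.0, 19.5 and 38.5 CPM in the knockdown-labelled libraries, against 15.6, 13.1 and 16.1 CPM in controls. All 3 knockdown-labelled values lay above all controls, and replicate 3 was the highest. The means were 28.3 ± 9.60 CPM in knockdown-labelled libraries and 15.0 ± 1.58 CPM in controls (SD, n = 3 each). The log2 fold change was 0.92 ± 0.24 (SE; 95% interval 0.43 to 1.42), with an adjusted p of 0.0309. The call was lost without knockdown replicate 3, at 0.64 on the log2 scale and an adjusted p of 0.198. It was also lost without control replicate 1, 2 or 3, at adjusted p of 0.11, 0.168 and 0.0747, and with DESeq2 or limma-voom, at 0.0685 and 0.0503 (range over all alternatives 0.00375 to 0.198).

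Its paralog *sp5a* had 39.6, 45.7 and 51.8 CPM in the knockdown-labelled libraries, against 40.2, 34.0 and 31.2 CPM in controls. The groups overlapped, since knockdown-labelled replicate 1 lay just under control replicate 1. Its log2 fold change of 0.36 ± 0.17 (SE) did not pass the test, at an adjusted p of 0.268. The third Sp gene, *sp5b*, had at most 4 counts in any library and was not tested.

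*axin2* encodes a scaffold of the β-catenin destruction complex that is itself switched on by canonical Wnt signals, and serves widely as a readout of them. It had 108, 104 and 101 CPM in the knockdown-labelled libraries, against 125, 116 and 124 CPM in controls. Every knockdown-labelled value lay below every control value, yet the difference was small. The log2 fold change was -0.22 ± 0.13 (SE; 95% interval -0.48 to 0.048). At an adjusted p of 0.387, *axin2* was not called. *lef1*, which encodes a nuclear partner of β-catenin and is also a target, had 63.1, 50.7 and 57.3 CPM in the knockdown-labelled libraries, against 56.7, 54.8 and 47.8 CPM in controls. These values overlapped, with a log2 fold change of 0.096 ± 0.15 (SE) at an adjusted p of 0.799.

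The ratio of 2 counts within a library needs no scaling factor. Reads of *sp5l* numbered 0.249, 0.188 and 0.38 per read of *axin2* in the knockdown-labelled libraries, against 0.125, 0.114 and 0.13 in controls. This pair was chosen after its values were seen, so the ratio is given without a test. It was higher in each of the 3 knockdown-labelled libraries than in any control.

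**Figure D3:**
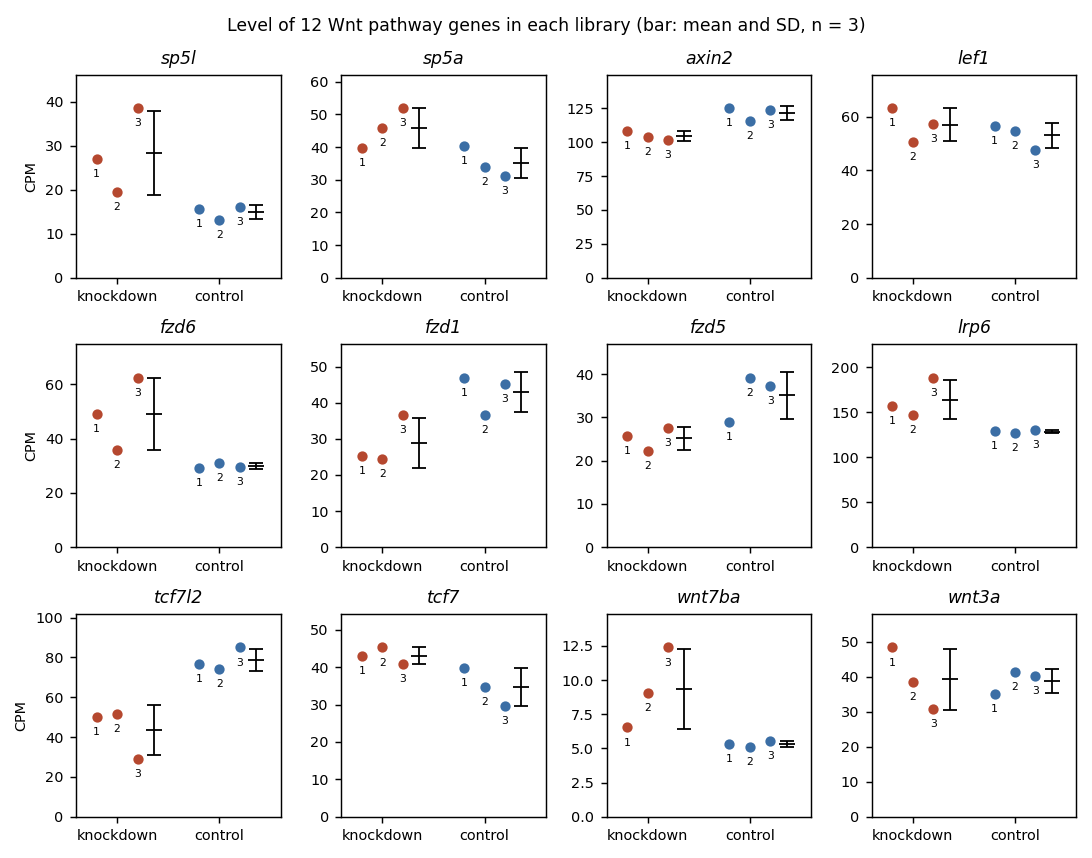
CPM of 12 genes in each library, with the replicate number under each point and the mean and SD of each group beside the points (n = 3). The knockdown-labelled values of *sp5l* and *fzd6* lie above all controls and those of *tcf7l2* below all controls, with replicate 3 farthest from the controls in each, whereas those of *lef1* and *wnt3a* overlap them.

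Markers of the tailbud and presomitic mesoderm were measured beside *sp5l*. The summed level of the 18 marker rows was 381, 291 and 487 CPM in the knockdown-labelled libraries, against 210, 190 and 235 CPM in controls. The knockdown-labelled libraries were highest in replicate 3 and lowest in replicate 2 for the summed markers and for *sp5l*. This order was not particular to them, since *fzd6* had it too. Among the markers, *tbx6* was highest in replicate 1, at 123, 63.4 and 91.7 CPM in the knockdown-labelled libraries. Of the 11 tested markers, 4 were called higher and 0 lower, against 2.01% and 2.27% of all tested genes. Their median log2 fold change was 0.87, and no marker row was at 0 counts in every library. The best counted of them were *tbx6*, at 92.8 ± 29.9 CPM in knockdown-labelled libraries and 36.1 ± 4.06 CPM in controls, and *ta*, at 47.7 ± 7.29 CPM in knockdown-labelled libraries and 47.3 ± 9.12 CPM in controls (SD, n = 3 each). *tbx6* was called higher, and *ta*, the zebrafish Brachyury gene, had a log2 fold change of 0.018 and was not called. The part of these markers in the change of *sp5l* was not tested.

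Among the nuclear factors, *tcf7l2* fell and the others did not pass the test. *tcf7l2* encodes a Tcf factor known for its expression in the embryonic forebrain and midbrain. It had 50.1, 51.6 and 28.9 CPM in the knockdown-labelled libraries, against 76.8, 74.4 and 85.0 CPM in controls. The highest knockdown-labelled value lay well below the lowest control. The means were 43.5 ± 12.7 CPM in knockdown-labelled libraries and 78.7 ± 5.56 CPM in controls (SD, n = 3 each). The log2 fold change was -0.85 ± 0.18 (SE; 95% interval -1.22 to -0.47), with an adjusted p of 0.00993. The call held in 16 of 17 alternatives and was lost without control replicate 3, at an adjusted p of 0.0506 (range over the alternatives 2.82e-05 to 0.0506).

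The name *tcf7l2* has a second row, so its reads can be split between copies. That row held 5, 6 and 3 counts in the knockdown-labelled libraries, against 14, 10 and 5 counts in controls. With both rows added together the log2 fold change was -0.84 and the adjusted p 0.0057. Within libraries, reads of *tcf7l2* numbered 0.273, 0.341 and 0.165 per read of *tcf7l1a* in the knockdown-labelled group, against 0.475, 0.449 and 0.552 in controls. This ratio was chosen after its values were seen and was not tested.

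*tcf7l1a* and *tcf7l1b*, whose products keep Wnt targets off in the zebrafish head, did not differ detectably. *tcf7l1a* had 184, 151 and 175 CPM in the knockdown-labelled libraries, against 162, 166 and 154 CPM in controls. *tcf7l1b* had 147, 119 and 127 CPM in the knockdown-labelled libraries, against 153, 139 and 130 CPM in controls. Both pairs of groups overlapped. Their log2 fold changes were 0.081 and -0.11, with 95% confidence intervals from -0.19 to 0.35 and from -0.39 to 0.17. *tcf7*, which encodes an activating Tcf factor, had 43.1, 45.3 and 40.8 CPM in the knockdown-labelled libraries, against 39.7, 34.6 and 29.7 CPM in controls. These groups did not overlap, but the log2 fold change of 0.30 ± 0.17 (SE) had an adjusted p of 0.374. *axin1*, the constitutive scaffold of the destruction complex, had 148, 150 and 183 CPM in the knockdown-labelled libraries, against 130, 129 and 135 CPM in controls. It too was higher in every knockdown-labelled library, with a log2 fold change of 0.29 ± 0.13 (SE) and an adjusted p of 0.243.

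Markers of neural tissue were measured beside *tcf7l2*. The 10 rows of the neural progenitor list summed to 552, 653 and 562 CPM in the knockdown-labelled libraries, against 752, 756 and 744 CPM in controls. Its best counted genes, *sox3* and *sox2*, were both called lower, with log2 fold changes of -0.63 and -0.62. Of the 9 tested, 1 other gene, *egr2b*, was called higher. The median log2 fold change of these 9 was only -0.14, with 3 genes above 0 and 6 below. Over all tested genes 2.01% were called higher and 2.27% lower. *gbx2* was the 1 row of the neural progenitor list at 0 counts in all libraries. The 9 rows of the neuron list summed to 921, 1018 and 759 CPM in the knockdown-labelled libraries, against 1293, 1199 and 1163 CPM in controls. Of these 9 genes, *tubb5* was called lower, with a log2 fold change of -0.60, and 0 were called higher. The median of the neuron list was -0.45, with 1 gene above 0 and 8 below. *elavl3* had a log2 fold change of -0.45 and was not called. The part of neural markers in the change of *tcf7l2* was not tested.

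The receptor rows included 14 that were tested, of which 1 was called higher and 0 lower, against 2.01% and 2.27% of all tested genes. *fzd6* encodes a Frizzled receptor known in vertebrates for planar cell polarity in skin. It had 49.2, 35.8 and 62.4 CPM in the knockdown-labelled libraries, against 29.1, 31.1 and 29.7 CPM in controls. All knockdown-labelled values lay above all controls, and they varied far more among themselves than the controls did. The means were 49.1 ± 13.3 CPM in knockdown-labelled libraries and 29.96 ± 1.02 CPM in controls (SD, n = 3 each). The log2 fold change was 0.71 ± 0.19 (SE; 95% interval 0.31 to 1.11), with an adjusted p of 0.0382. The call was lost without knockdown replicate 1 or 3, at adjusted p of 0.0627 and 0.21, without control replicate 1, 2 or 3, at 0.166, 0.138 and 0.112, and with DESeq2 or limma-voom, at 0.0781 and 0.0585 (range over all alternatives 0.00765 to 0.21).

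Epidermal markers were measured beside *fzd6*. The 8 rows of that list summed to 3697, 3587 and 4479 CPM in the knockdown-labelled libraries, against 3177, 3733 and 3375 CPM in controls. The summed levels overlapped, while 2 of 7 tested genes were called higher, against 2.01% of all tested genes. The best counted of the list, *krt4* and *krt17*, had log2 fold changes of 0.033 and 1.37, and only the second was called. The part of epidermal markers in the change of *fzd6* was not tested.

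*fzd1* and *fzd5* had the lowest estimates among the receptors. *fzd1* had 25.2, 24.5 and 36.7 CPM in the knockdown-labelled libraries, against 46.9, 36.5 and 45.3 CPM in controls. The groups touched, with knockdown-labelled replicate 3 just above control replicate 2. Its difference of -0.57 ± 0.19 (SE) on the log2 scale had an adjusted p of 0.0965. It was called in 1 alternative, without knockdown replicate 3, at -0.79 on the log2 scale and an adjusted p of 0.0331 (range over the alternatives 0.0331 to 0.336). *fzd5*, a receptor gene known for its expression in the zebrafish eye field, had 25.7, 22.2 and 27.5 CPM in the knockdown-labelled libraries, against 28.9, 39.1 and 37.2 CPM in controls. Its groups did not overlap, with a log2 fold change of -0.47 ± 0.19 (SE) at an adjusted p of 0.179.

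Expressed as shares of all reads from *fzd* rows, *fzd6* was higher and *fzd1* and *fzd5* lower in the knockdown-labelled libraries, without a test. Rows of *fzd7a* and *fzd9b* had no count in any library and add nothing to these shares. All *fzd* rows together held 1644, 1529 and 1787 counts in the knockdown-labelled libraries, against 2768, 2174 and 1360 counts in controls. *fzd6* took 6.55 ± 1.25% of them in knockdown-labelled libraries and 4.26 ± 0.25% in controls (SD, n = 3 each). *fzd1* took 3.85 ± 0.55% in knockdown-labelled libraries and 6.09 ± 0.74% in controls (SD, n = 3 each). *fzd5* took 3.38 ± 0.19% in knockdown-labelled libraries and 4.997 ± 0.92% in controls (SD, n = 3 each). Reads of *fzd6* numbered 1.95, 1.46 and 1.7 per read of *fzd1* in the knockdown-labelled libraries, against 0.621, 0.851 and 0.656 in controls. Both genes were singled out after their values were seen, and this ratio was not tested.

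Among the best counted receptor genes, *fzd3a* had 207, 198 and 211 CPM in the knockdown-labelled libraries, against 218, 205 and 196 CPM in controls. The log2 fold change was -0.0086, with a 95% confidence interval from -0.27 to 0.25, and its share of Frizzled reads was 27.8 ± 1.73% in knockdown-labelled libraries and 29.3 ± 0.55% in controls (SD, n = 3 each). Its paralog *fzd3b* had 24.4, 20.8 and 26.6 CPM in the knockdown-labelled libraries, against 19.1, 18.3 and 14.1 CPM in controls. These groups did not overlap, with a log2 fold change of 0.46 ± 0.21 (SE) and an adjusted p of 0.246. *fzd10*, *fzd8a*, *fzd7b*, *fzd2* and *fzd4* had log2 fold changes of 0.028, -0.032, 0.12, 0.30 and 0.31, and none of them was called.

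The coreceptor genes were also uncalled. *lrp5* had 212, 167 and 172 CPM in the knockdown-labelled libraries, against 211, 177 and 166 CPM in controls. The 2 groups nearly coincided, with a log2 fold change of -0.0091 and a 95% confidence interval from -0.30 to 0.28. *lrp6* had 157, 147 and 188 CPM in the knockdown-labelled libraries, against 129, 127 and 130 CPM in controls. Here the groups did not overlap, with a log2 fold change of 0.35 ± 0.13 (SE) at an adjusted p of 0.146. A second row under the same name, *lrp6-2*, had a log2 fold change of 0.067 ± 0.24 (SE), and with both rows added the value was 0.32, at an adjusted p of 0.172. *ror1*, which encodes a receptor for β-catenin independent Wnt signals, had 37.4, 55.2 and 48.2 CPM in the knockdown-labelled libraries, against 45.5, 38.5 and 41.7 CPM in controls. Its groups overlapped, with a log2 fold change of 0.16 at an adjusted p of 0.687. The 2 rows of *ror2* had at most 2 counts in any library.

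None of the 16 tested ligand rows was called by edgeR, where 4.29% of all tested genes were. An unadjusted edgeR p-value under 0.05 was found for 1 ligand row, *wnt7ba* (6.25%, against 18.1% of all tested genes). limma-voom called none of the 16 ligand rows either, and DESeq2 none of the 12 to which it gave an adjusted p. *wnt7ba* had 6.53, 9.06 and 12.4 CPM in the knockdown-labelled libraries, against 5.29, 5.13 and 5.53 CPM in controls. These rest on 15, 20 and 27 counts in the knockdown-labelled libraries, against 20, 16 and 11 counts in controls. All knockdown-labelled values were above all controls, with a log2 fold change of 0.81 ± 0.33 (SE) at an adjusted p of 0.183. Its paralog *wnt7bb* had 16.5, 16.3 and 17.9 CPM in the knockdown-labelled libraries, against 10.6, 13.8 and 12.6 CPM in controls. It also had groups that did not overlap, with a log2 fold change of 0.47 ± 0.23 (SE) and an adjusted p of 0.294. The third gene of the family, *wnt7aa*, had 8.70, 11.3 and 9.17 CPM in the knockdown-labelled libraries, against 14.3, 9.94 and 15.6 CPM in controls. Its groups overlapped, and its log2 fold change of -0.43 ± 0.27 (SE) had an adjusted p of 0.417.

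The canonical ligand gene *wnt3a*, active in the zebrafish tailbud and dorsal neural tube, had 48.3, 38.5 and 30.7 CPM in the knockdown-labelled libraries, against 34.9, 41.4 and 40.2 CPM in controls. The controls lay within the spread of the knockdown-labelled libraries. Its log2 fold change was 0.021 ± 0.18 (SE; 95% interval -0.36 to 0.40), at an adjusted p of 0.968. Changes of any size within this interval remain compatible with these libraries. *wnt8b*, a ligand gene of the zebrafish forebrain and midbrain, had 7.83, 4.53 and 9.17 CPM in the knockdown-labelled libraries, against 7.15, 6.09 and 6.54 CPM in controls. The log2 fold change of 0.12 had a 95% confidence interval from -0.58 to 0.81.

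*wnt5b*, a ligand gene known for β-catenin independent signalling during body extension, and the row *wnt11r* also overlapped between groups. The rows *wnt11* and *wnt11-2* had no count in any library, so no change can be read for them. *wnt5b* had 57.0, 54.3 and 72.0 CPM in the knockdown-labelled libraries, against 54.0, 56.1 and 42.7 CPM in controls. The difference was 0.25 ± 0.16 (SE) on the log2 scale, with an adjusted p of 0.445. The row named *wnt11r*, which RefSeq lists as an older name of *wnt11*, had 56.6, 49.8 and 66.0 CPM in the knockdown-labelled libraries, against 51.9, 55.1 and 59.8 CPM in controls. Its log2 fold change was 0.054, with a 95% confidence interval from -0.27 to 0.38. The symbol *wnt11* has moved between genes, so the name *wnt11* was not matched to RefSeq. The rows *wnt11* and *wnt11-2* are therefore not taken as the same gene as *wnt11r*.

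Several Wnt genes lie side by side in the genome, and 4 neighbouring pairs were found in RefSeq's gene order of the GRCz12tu assembly. *wnt10b* and *wnt1*, both known at the midbrain-hindbrain boundary, had log2 fold changes of 0.38 and 0.11. *wnt3a* and *wnt9a* had 0.021 and 0.23, and *wnt6b* and *wnt10a* had 0.43 and -0.018. None of these 6 genes was called. The fourth pair, *wnt8a* and *wnt8-2*, had no count in any library. Among the other tested ligands, *wnt9b*, *wnt4a*, *wnt3* and *wnt16* had log2 fold changes of -0.10, 0.25, -0.078 and 0.026. Second rows of *wnt3* and *wnt16* had too few counts for the test. *wnt3-2* held 9, 3 and 1 counts in the knockdown-labelled libraries, against 10, 11 and 3 counts in controls. *wnt16-2* held 6, 5 and 4 counts in the knockdown-labelled libraries, against 5, 4 and 9 counts in controls.

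**Figure D4:**
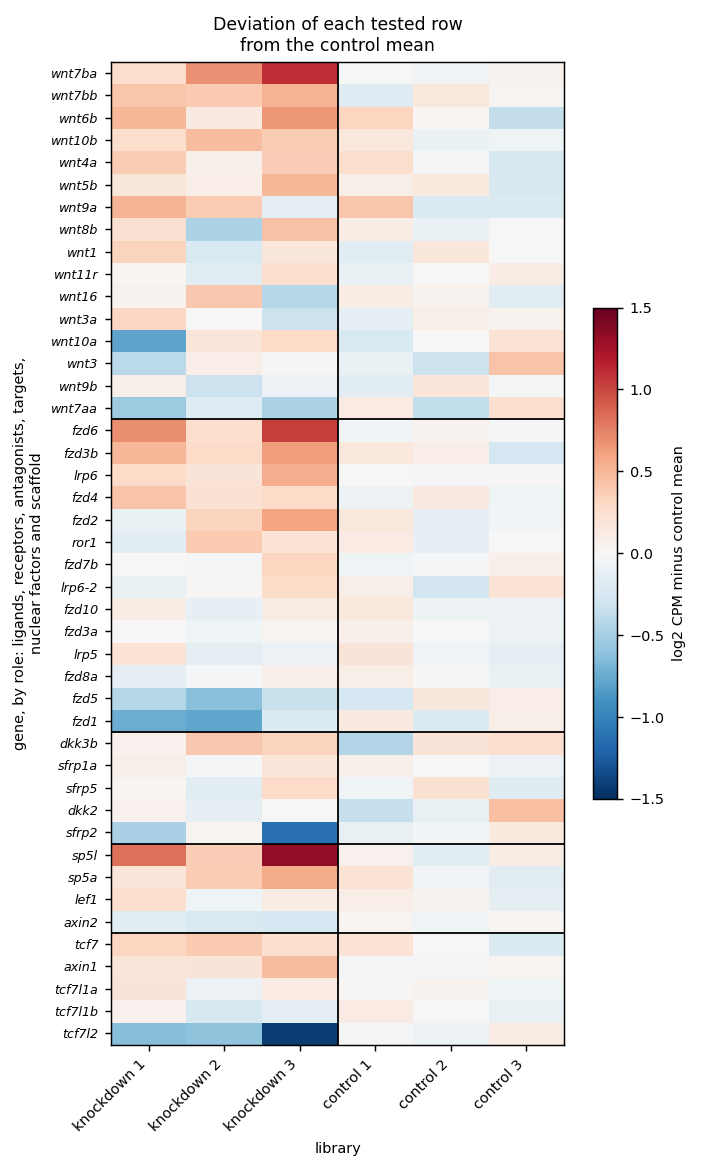
Log2 CPM of each tested row in each library, minus the mean of the 3 controls, with rows grouped by role and the knockdown-labelled libraries on the left. Replicate 3 holds the strongest colours for *sp5l*, *fzd6*, *tcf7l2*, *wnt7ba* and *sfrp2*, and the ligand rows other than *wnt7ba* stay under 0.8 in size.

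The knockdown-labelled libraries did not depart from the controls equally. Replicate 3 lay farthest from the control mean in 21 of the 44 tested rows (47.7%), replicate 2 in 12 and replicate 1 in 11. Over all tested genes replicate 3 was farthest in 43.7%, replicate 2 in 23.5% and replicate 1 in 32.8%. It was farthest for all 3 called genes. The summed CPM of all ligand rows was 328, 299 and 331 in the knockdown-labelled libraries, against 289, 302 and 295 in controls. The receptor rows summed to 1136, 1077 and 1246 CPM in the knockdown-labelled libraries, against 1134, 1051 and 1040 CPM in controls. Neither sum separated the groups.

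The secreted antagonists had 14 rows, of which 5 were tested and 0 called by edgeR or limma-voom, with none at an unadjusted edgeR p-value under 0.05. DESeq2 called none of the 3 to which it gave an adjusted p. Over all tested genes edgeR called 4.29%, and 18.1% had an unadjusted edgeR p-value under 0.05. Sfrp proteins resemble the ligand-binding part of Frizzled receptors, and the classical Dkk proteins bind Lrp coreceptors. *sfrp2* had the lowest estimate, with 10.4, 15.4 and 6.42 CPM in the knockdown-labelled libraries, against 13.8, 14.4 and 16.6 CPM in controls. The groups overlapped through knockdown-labelled replicate 2. Its log2 fold change was -0.45 ± 0.28 (SE) at an adjusted p of 0.411, and leaving out knockdown replicate 2 or 3 gave -0.81 and -0.20. A second row, *sfrp2-2*, was not tested. It held 5, 3 and 3 counts in the knockdown-labelled libraries, against 13, 8 and 2 counts in controls. *sfrp5* had 50.5, 43.9 and 60.1 CPM in the knockdown-labelled libraries, against 47.9, 57.7 and 43.2 CPM in controls. *sfrp1a* had 31.3, 29.0 and 33.5 CPM in the knockdown-labelled libraries, against 31.0, 29.5 and 27.7 CPM in controls. Both overlapped, with log2 fold changes of 0.045 and 0.083. *dkk3b* and *dkk2* had log2 fold changes of 0.32 and 0.0012 on means of 6.14 and 4.48 CPM in knockdown-labelled libraries and 5.08 and 4.72 CPM in controls.

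The 24 rows with too few counts had at most 2 to 21 counts in their best library. *fzd8b* had 14, 6 and 21 counts in the knockdown-labelled libraries, against 12, 7 and 5 counts in controls. Its second row, *fzd8b-2*, had 0, 14 and 2 counts in the knockdown-labelled libraries, against 8, 11 and 4 counts in controls. *sfrp2l* had 4, 9 and 17 counts in the knockdown-labelled libraries, against 3, 5 and 8 counts in controls. *dkk1a* had 5, 9 and 10 counts in the knockdown-labelled libraries, against 12, 9 and 8 counts in controls. Each of these rows overlapped between the groups. *dkk1b*, a classical Wnt antagonist gene of the head, held 2 counts in knockdown-labelled replicate 2 and 0 elsewhere.

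The 16 rows without a count all belong to names with several rows. In 6 names, *wnt8a*, *wnt8-2*, *wnt11*, *fzd7a*, *fzd9b* and *sfrp1b*, every row was at 0 in all libraries. Of the 19 names with more than 1 row, these 6 were at 0 (31.6%), and of the 44 names with 1 row, 0 were. Over the whole dataset 24.7% of the names with several rows were at 0, and 9.59% of the names with 1 row. *wnt8a* is a canonical ligand gene of the zebrafish ventrolateral mesoderm and tailbud. How reads that match several rows were counted is not given in the sources used here, and its part in these zeros was not tested. These names are therefore only listed at 0. A count of 0 allows up to 3 counts, or 0.788 to 1.47 CPM before TMM scaling, for counting error alone.

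**Figure D5:**
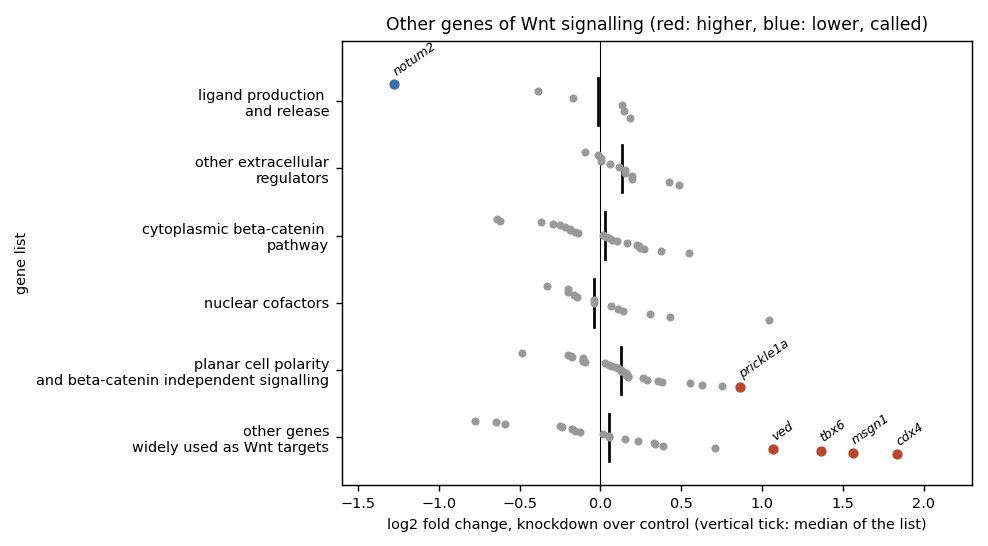
Log2 fold change, knockdown-labelled over control, of the tested genes of 6 further lists of Wnt signalling, 1 point per gene, with the list median as a vertical tick. Called genes are named: *cdx4*, *msgn1*, *tbx6* and *ved* among the target genes, *prickle1a* in planar cell polarity and *notum2* in ligand release.

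Other genes of the pathway were examined in 6 lists. Over all tested genes edgeR called 4.29%, 18.1% had an unadjusted p-value under 0.05, and the median log2 fold change was 0.011. In the cytoplasmic β-catenin list, 22 genes were tested and 0 called by edgeR, with 3 at an unadjusted p-value under 0.05 and a median log2 fold change of 0.025. *ctnnb1*, which encodes β-catenin, averaged 928 ± 75.1 CPM in knockdown-labelled libraries and 864 ± 83.2 CPM in controls (SD, n = 3 each). The nuclear cofactors had 13 tested genes and 0 calls by edgeR, with 3 at an unadjusted p-value under 0.05. Their median was -0.040. Extracellular regulators other than the *dkk* and *sfrp* genes had 12 tested genes, 0 calls by edgeR, 1 gene at an unadjusted p-value under 0.05 and a median of 0.13. In these 3 lists limma-voom made 0 calls as well, and DESeq2 made 0 among the 20 cytoplasmic, 12 nuclear and 11 extracellular genes to which it gave an adjusted p. Other edgeR settings called 1 gene of the cytoplasmic list and 1 of the nuclear cofactors, both named after their values were seen. *apc2*, in the cytoplasmic list, had a log2 fold change of -0.62 at an adjusted p of 0.0659, and was called lower without a filter on low counts, with the replicate block and without knockdown replicate 2, at adjusted p of 0.0315, 0.0484 and 0.0234. *zgc:136336*, an older name of the Groucho-family gene *tle2c*, had a log2 fold change of 1.04 at an adjusted p of 0.0503. It was called higher in 5 alternatives, at adjusted p of 0.0355 to 0.0473.

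Ligand production and release had 6 tested genes, with 0 called higher and 1 lower, against 2.01% and 2.27% of all tested genes. The gene called lower was *notum2*, of a family whose enzymes remove the lipid from Wnt proteins. It had 4.35, 3.62 and 4.13 CPM in the knockdown-labelled libraries, against 9.27, 9.94 and 10.6 CPM in controls. The groups were well apart, with a log2 fold change of -1.28 ± 0.32 (SE) at an adjusted p of 0.0278. The call was lost when any 1 library was left out, at adjusted p of 0.0506 to 0.121 and log2 fold changes of -1.33 to -1.21. It was also lost with DESeq2, at an adjusted p of 0.121 (range over all alternatives 0.0183 to 0.121).

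Planar cell polarity and other β-catenin independent signalling had 28 tested genes, with a median of 0.12. Of these, 1 was called higher and 0 lower, against 2.01% and 2.27% of all tested genes. *prickle1a*, which encodes a cytoplasmic planar cell polarity protein, had 63.1, 52.1 and 76.6 CPM in the knockdown-labelled libraries, against 32.0, 38.8 and 34.7 CPM in controls. Every knockdown-labelled value exceeded every control, with a log2 fold change of 0.86 ± 0.17 (SE) at an adjusted p of 0.00593. The call was lost without control replicate 1, at an adjusted p of 0.0603 (range over the alternatives 0.000138 to 0.0603).

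Of the other genes widely used as Wnt targets, 21 were tested, with a median log2 fold change of 0.055. Of these, 4 were called higher and 0 lower, against 2.01% and 2.27% of all tested genes. The tailbud regulators *cdx4*, *tbx6* and *msgn1* were called at log2 fold changes of 1.84, 1.36 and 1.56. The call of *msgn1* was lost without knockdown replicate 3, at an adjusted p of 0.0928, and without control replicate 1, 2 or 3, at 0.0603, 0.114 and 0.0567. *ved*, which encodes a ventral homeodomain repressor, had 14.4, 14.5 and 17.9 CPM in the knockdown-labelled libraries, against 6.35, 7.37 and 9.05 CPM in controls, with a log2 fold change of 1.07 at an adjusted p of 0.0235. The call of *ved* was lost without knockdown replicate 3 and without control replicate 1 or 2, at adjusted p of 0.103, 0.149 and 0.113, and with DESeq2, at 0.0964. Calls lower in this list came with other settings: *cldn1* and *pax7a*, at -0.64 and -0.78 on the log2 scale and adjusted p of 0.0564 and 0.0616, were both called lower without a filter and with copies summed. *cldn1* was also called without knockdown replicate 1, at an adjusted p of 0.0452. *cdx1a*, with too few counts for the main test, was called higher only without a filter, at 2.74 on the log2 scale and an adjusted p of 0.0251. It had 8, 10 and 60 counts in the knockdown-labelled libraries, against 8, 2 and 5 counts in controls. DESeq2 did not call *cdx1a*, at an adjusted p of 0.172. Of the tailbud marker symbols, 7 belong to this list too, among them *tbxtb*, which has no row in the table. The 2 counts therefore share genes, and the calls of *cdx4*, *tbx6* and *msgn1* enter both.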

How the data were processed

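The deposited table holds raw read counts, made by the authors, with gene names in rows and libraries in columns. Per the submitters' processing notes, FastQC, cutadapt, STAR and DESeq2 and the build GRCz11 were used, with no versions or roles. The counting tool, the annotation and any use of strand are not given in the sources used here, so overlapping and antisense genes cannot be separated, and no coordinates are given. Columns were matched to samples through the library names in the descriptions. The description of control replicate 3 repeats the number of replicate 2, so its number follows the title.

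Counts were filtered with filterByExpr (minimum count 10, minimum total 15), scaled with TMM factors and tested with edgeR 4.0.16 in R 4.3.3 (glmQLFit with robust=TRUE, glmQLFTest, group as the only term, 6 libraries). P-values were adjusted over 15607 genes with the Benjamini-Hochberg method, and genes under 0.05 were called. Standard errors were taken as the fold change over the square root of F. Log2 CPM used a prior count of 2. The alternatives were DESeq2 1.42.0, limma-voom 3.58.1, other scalings and filters, robust=FALSE, summed copies, the replicate block and leaving out each library. Names absent from the table were sought among RefSeq's older names, which placed 6 marker and 6 pathway symbols. For gene order, 62 of the 63 names matched RefSeq. Figures were drawn with matplotlib 3.10.9.

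The genes, lists and rules were chosen with earlier results of these data known. The text names every called Wnt row, the best counted and most changed rows of each role, and a fixed set of well known genes. It also gives some of the names with several rows and up to 3 called genes of each pathway list. Of the tailbud, neural and epidermal markers it gives the 2 best counted of each list. *wnt4b*, *wnt2*, *wnt2bb* and *fzd9a*, which have several rows with too few counts for the test, are not described. Other rows were added to complete families and lists after their values were seen.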

Additional observations from a re-analysis of the deposited data

How the results depend on the processing

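Across the 17 alternatives, the median log2 fold change of the tested Wnt rows stayed above 0 and moved by less than its spread between the knockdown-labelled libraries, at 0.0427 to 0.149. The median over all tested genes moved as well, from -0.0096 without a filter on low counts to 0.065 with library sizes alone. Wnt rows called higher numbered 2, against 0 with DESeq2 and 0 with limma-voom, and 0 to 2 when 1 library was left out. Rows called lower numbered 1, and 0 to 2 when 1 library was left out. The genes called over the whole table numbered 669, against 1010 without a filter on low counts and 218 to 914 with 1 library left out. In the 6 pathway lists, 5 genes were called higher (2 to 5 with 1 library left out) and 1 lower (0 to 1). Without a filter, *cdx1a* and *zgc:136336* were called higher as well. The number called lower was 4 without a filter, 0 with at least 10 counts in every sample, 0 with DESeq2, 2 with the replicate block and 3 with copies summed.

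Of 34 named tested Wnt rows, 11 changed sign in some alternative, none of them called and each with an adjusted p-value of at least 0.714 there, and the cause was not tested. *dkk2* was at -0.0015 with DESeq2 size factors, -0.016 with upper quartile factors, -0.022 without a filter and -0.019 with the replicate block. *fzd3a* and *lrp5* were at 0.047 and 0.046 with library sizes alone, *wnt3a* at -0.00043 without a filter and *wnt16* at -0.011 with limma-voom. With 1 library left out, the ranges were -0.21 to 0.24 for *dkk2*, -0.019 to 0.12 for *fzd10*, -0.046 to 0.030 for *fzd3a*, -0.13 to 0.096 for *lrp5*, -0.078 to 0.16 for *lrp6-2*, -0.085 to 0.17 for *sfrp5*, -0.061 to 0.14 for *wnt11r*, -0.23 to 0.24 for *wnt16*, -0.25 to 0.13 for *wnt3*, -0.16 to 0.16 for *wnt3a* and -0.098 to 0.35 for *wnt8b*.

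Libraries with the same replicate number deviated together at r = -0.014, 0.0661 and 0.0685 over the tested genes. Those with different numbers had r from -0.0976 to 0.052. With 3 libraries per group these values cannot settle whether replicates were paired, and the main fit did not take the numbers as pairs. With the replicate block 773 genes were called, and *sp5l*, *fzd6* and *tcf7l2* kept their calls. Totals as low as 2042600 counts leave wide intervals for the rows with few counts. With 3 libraries in a group, 1 of them decided several of the calls given above, while *cdx4* and *tbx6* were called in all 17 alternatives.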
